A study of Oncorhynchus mykiss with 24 samples.

Results

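Epoxide hydrolase 2 was measured in rainbow trout liver by 2 spots of a salmonid oligo-array, C066R156 and C099R107. The members were all spots whose description in the study's lists of differing mRNAs begins with epoxide hydrolase, and the spots in those lists were selected on their measured fold changes and p-values between the groups. This rule found 2 spots among 486 described spots, on an array of 43689 oligos. Both are described as Epoxide hydrolase 2. The deposited array files name no gene for either spot, and whether both report 1 transcript or transcripts of duplicated genes was not tested. The trout annotation of RefSeq used for names (USDA_OmykA_1.1) holds 1 gene with the symbol ephx2.

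Epoxide hydrolase 2, the soluble epoxide hydrolase, adds water to epoxides and so turns them into diols. Its best known substrates in mammals are epoxides of fatty acids, which act as lipid mediators, and the enzyme is found in the cytosol and in peroxisomes. In the mammalian liver it stands beside the microsomal epoxide hydrolase, cytochromes P450 and conjugating enzymes in the handling of lipids and foreign compounds.

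Liver RNA of 24 fish was compared, with 6 fish in each of 4 groups. Hybrid fish (W/D) came from a domesticated female and a wild male, and domesticated fish (D) came from the same female and a domesticated male of a strain from Campbell Lake selected for growth. Age-matched wild fish (Wa, reared in 2007 as were D) came from a wild female of the Pennask Lake strain and the same wild male as the hybrids. Size-matched wild fish (Ws, reared in 2006) came from randomly mated wild crosses. W/D, D and Wa were thus 1 family each, so that effects of family and of strain cannot be told apart. The study made the crosses of W/D, D and Wa in June 2007. It reports that weights and lengths varied between all groups, with D and Ws heavier than W/D and Wa. It describes the body size of D as close to that of Ws, which differed from D in age. In the other pairings effects of body size cannot be told apart from those of group. Wa and Ws differed in age, size and parentage together.

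Each array carried 1 fish in the Cy5 dye and, in the Cy3 dye, a pool of 6 size-matched wild fish. Levels are log2 ratios of the fish over this pool, so that 0 is the level of the pool. The dyes were not swapped, and every slide held 1 fish of each group in the same positions, so that position and group cannot be told apart. Array medians of the Cy5 signal ran between 206 and 233 in W/D, 214 and 246 in D, 197 and 208 in Wa and 198 and 204 in Ws. The median local background ran between 123 and 134. The titles of D fish 4 and 6 carry the same fish code, but their descriptions carry different codes. Their log2 ratios had a correlation of 0.617 across oligos, within the range of the other 14 pairs of D fish (0.396 to 0.643), and they were counted as 2 fish. Among liver mRNAs, 7 of 8 spots for apolipoproteins, complement C3, fibrinogen and serum albumin passed the filter on signal, as did 8679 of all 43689 oligos. These spots came from the study's lists, which had already been filtered on signal, so that their passing was largely set beforehand.

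C066R156 was high in every W/D and D fish, high in 4 of 6 Wa fish and low in 5 of 6 Ws fish. In W/D fish 1 to 6 its log2 ratio was 3.46, 4.47, 3.17, 3.04, 3.07 and 2.67. In D fish it was 3.21, 2.75, 3.31, 2.91, 2.68 and 3.57. The W/D and D fish overlapped over most of their range, and W/D fish 2 was the highest of all 24. In Wa fish the log2 ratio was 3.18, 0.26, 2.94, 2.45, 3.33 and -0.04. In Ws fish it was 0.04, -0.45, 2.22, -0.82, 0.23 and 0.57. Wa fish 2 and 6 lay among the Ws fish, and Ws fish 3 lay close to the lowest of the other Wa fish. No fish had a log2 ratio between 0.57 and 2.22, with 7 fish below this gap and 17 above it.

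**Figure D1:**
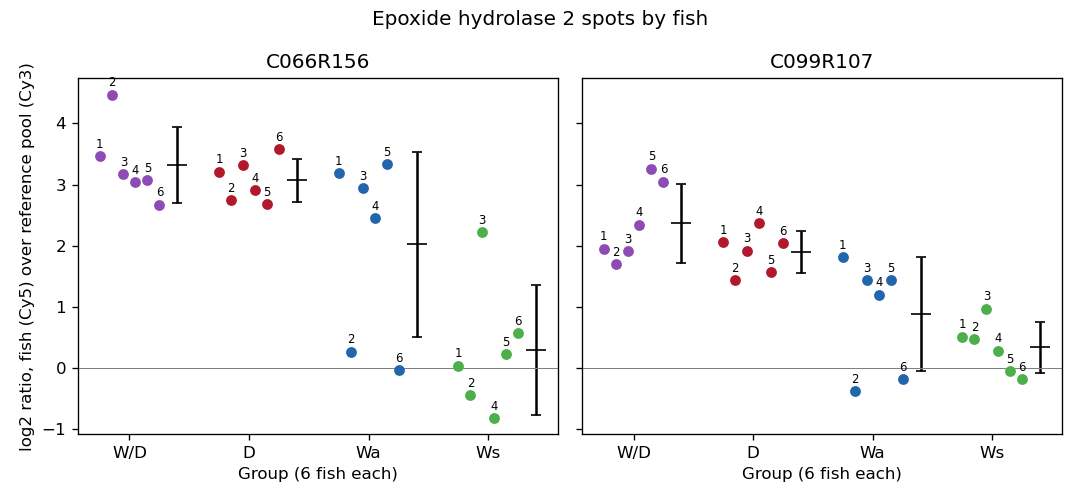
Log2 ratio of each fish over the reference pool for spots C066R156 and C099R107, with fish numbered by slide and the mean and SD of 6 fish as bars. For C066R156, Wa fish 2 and 6 (0.26 and -0.04) lie far below the other 4 Wa fish, and Ws fish 3 (2.22) lies above the other Ws fish.

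The same fish stood out in the raw Cy5 signal of C066R156, before any background correction or normalization. The signal was between 2447 and 6001 in W/D (median 5285) and between 2208 and 5655 in D (median 3649). Wa fish 1 to 6 had signals of 2444, 360, 2451, 2663, 2359 and 362. Ws fish had signals of 387, 359, 1589, 346, 383 and 349. The signal counted as above background, that is over the mean local background plus 2 standard deviations, in all W/D and D fish, in 5 of 6 Wa fish and in 4 of 6 Ws fish. The low fish therefore lay near the limit of measurement, and the order among them carries little. None of the values of either spot was saturated or carried a flag.

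**Figure D2:**
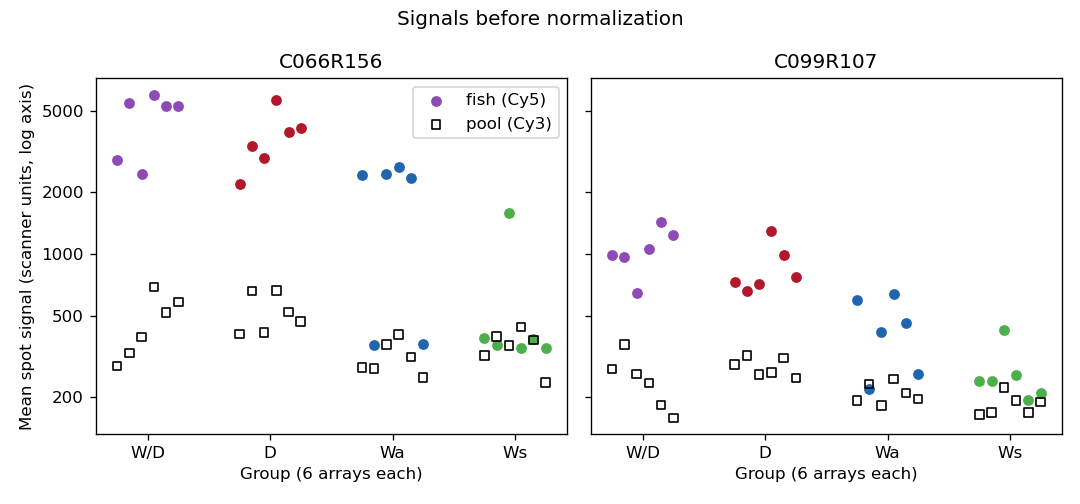
Mean spot signal in scanner units on a log axis, with the fish (Cy5) as filled circles and the reference pool (Cy3) as open squares, 6 arrays per group. For C066R156 no fish has a signal between 387 and 1589.

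C099R107 was the dimmer spot and showed a smaller range. In W/D fish 1 to 6 its log2 ratio was 1.95, 1.69, 1.91, 2.34, 3.26 and 3.05. In D fish it was 2.06, 1.43, 1.92, 2.37, 1.57 and 2.04. W/D fish 5 and 6 had the highest log2 ratios of all fish, and the other 4 W/D fish lay within the range of D. The pool (Cy3) signals on the arrays of fish 5 and 6, 183 and 159, were the lowest of the W/D arrays. That of fish 6 was not above background. In normalized Cy5 alone, W/D fish 4 (9.94) and D fish 4 (9.93) lay above W/D fish 5 and 6 (9.85 and 9.78). In raw Cy5, W/D fish 5 (1439) was the highest. In Wa fish the log2 ratio was 1.81, -0.39, 1.43, 1.20, 1.44 and -0.19. In Ws fish it was 0.51, 0.47, 0.97, 0.28, -0.05 and -0.18. Wa fish 2 and 6 were again the low ones of their group. Of the other Wa fish, 3 and 4 also lay below every W/D and D fish, fish 3 only just. Ws fish 3 was again the highest of its group. The Cy5 signal was between 642 and 1439 in W/D and between 659 and 1290 in D. It was between 219 and 642 in Wa and between 194 and 428 in Ws. It was above background in all W/D and D fish, in 5 of 6 Wa fish and in 4 of 6 Ws fish. The Cy3 signal of the pool was above background on all D and Wa arrays, on 5 of 6 W/D arrays and on 4 of 6 Ws arrays.

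Group means followed the order W/D, D, Wa and Ws for both spots. C066R156 averaged 3.31 ± 0.62 in W/D, 3.07 ± 0.35 in D, 2.02 ± 1.51 in Wa and 0.30 ± 1.06 in Ws on the log2 ratio scale (SD, n = 6 each). C099R107 averaged 2.37 ± 0.65 in W/D, 1.90 ± 0.34 in D, 0.88 ± 0.93 in Wa and 0.33 ± 0.42 in Ws. The neighbours W/D and D did not differ beyond their spread for either spot. For C066R156 the Wa mean described no single fish, since no Wa fish had a log2 ratio between 0.26 and 2.45.

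The study had listed C066R156 as differing from Ws in each of W/D, D and Wa, and C099R107 as differing from each wild group in both W/D and D. These comparisons chose the spots and are given as descriptions without a test. Both spots had also passed the study's test over all 4 groups. For C066R156 the difference of group means from Ws was 3.02 log2 units in W/D, 2.78 in D and 1.73 in Wa. The ranges of W/D and Ws did not overlap, and neither did those of D and Ws, as was the case for 2.02% and 3.43% of oligos. The Wa and Ws fish overlapped. For C099R107 the difference from Ws was 2.04 in W/D and 1.57 in D, and the difference from Wa was 1.48 in W/D and 1.01 in D. The ranges of W/D and Ws, and of D and Ws, did not overlap. Those of W/D and D each overlapped with Wa. The comparisons share fish, so that they are not independent of each other.

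Of the comparisons that had not chosen the spots, 6 were tested with limma over all 8679 oligos that passed the filter, with Benjamini-Hochberg adjustment. A difference was called where the fold change reached 2 and the adjusted p did not exceed 0.05. None of the 6 tests made a call (0 of 6). In 2 of 6 the unadjusted p was under 0.05, and the share of all oligos with such a p was not counted. The methods' test made 0 calls in the 5 comparisons it could be run for. These 5 were pairings in which the study, on the same arrays, had not listed the spot. The other test set W/D against the mean of D and Wa and combines pairings of that kind. The absence of calls was therefore largely set by that choice and is no independent result.

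For W/D relative to D, C066R156 had a log2 fold change of 0.24 (standard error 0.48, limma adjusted p = 0.900), with a 95% interval from -0.75 to 1.23. C099R107 had a log2 fold change of 0.47 (standard error 0.32, limma adjusted p = 0.617), with an interval from -0.19 to 1.13. Differences of 2-fold up in the hybrids lie within both intervals. The standard errors, p-values and intervals rest on a spread estimated over all groups together. For C066R156 it takes in the wider spread of Wa (SD 1.51) and Ws (SD 1.06), which are not in this comparison. Within W/D and D the SD of C066R156 was 0.62 and 0.35. In this comparison 0.749% of oligos were called. On the same slide the W/D fish was higher than the D fish on 4 of 6 slides for C066R156 and on 3 of 6 for C099R107.

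For W/D relative to Wa, C066R156 had a log2 fold change of 1.29 (standard error 0.48, unadjusted p = 0.0121, limma adjusted p = 0.229), where 0.933% of oligos were called. Its interval ran from 0.30 to 2.28. The W/D fish was higher on 5 of 6 slides, by 4.21 on slide 2 and 2.71 on slide 6 and by at most 0.59 on the others. For D relative to Wa its log2 fold change was 1.05 (standard error 0.48, unadjusted p = 0.0378, limma adjusted p = 0.190), where 3.58% of oligos were called. The D fish was higher on 5 of 6 slides, by 2.49 on slide 2 and 3.61 on slide 6 and by at most 0.46 on the others. Slides 2 and 6 are those of the low Wa fish. For C066R156 the spread over all groups together (residual SD 0.99) was smaller than that within Wa (SD 1.51). The standard errors and p-values against Wa are therefore likely too small, and the interval too narrow.

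For Wa relative to Ws, C099R107 had a log2 fold change of 0.55 (standard error 0.32, limma adjusted p = 0.430), where 0.887% of oligos were called. Its interval ran from -0.11 to 1.21. The spread over all groups together (residual SD 0.63) was below that within Wa (SD 0.93) and above that within Ws (SD 0.42). The Wa fish was higher on 4 of 6 slides. C099R107 passed the filter on signal only through W/D and D. Its Cy5 signal was under the filter's minimum of 300 in Wa fish 2 and 6 (219 and 261) and in every Ws fish but fish 3 (428). The comparison thus rests largely on values near background.

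The hybrids were also set against the midparent, the mean of the D group and a wild group. C066R156 lay 0.77 log2 units above the midparent of D and Wa (standard error 0.42, limma adjusted p = 0.649), where 0.173% of oligos were called. The interval ran from -0.09 to 1.62. The values that share a comparison with the rule are descriptions. C066R156 lay 1.63 above the midparent of D and Ws, and C099R107 lay 0.98 above that of D and Wa and 1.25 above that of D and Ws.

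**Figure D3:**
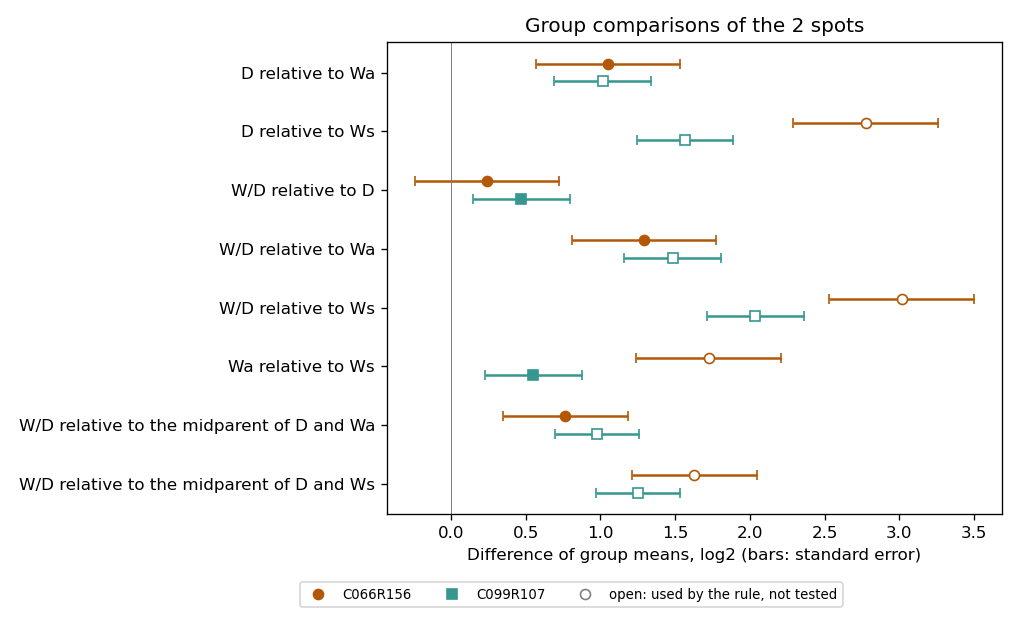
Difference of group means on the log2 scale with its standard error for C066R156 (circles) and C099R107 (squares), with the first-named group over the second. Filled symbols were tested and open symbols belong to comparisons that chose the spots. The values for W/D relative to D (0.24 and 0.47) are the smallest of each spot.

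Within the wild groups the spread between fish of C066R156 was larger than that of most oligos. In Wa its SD was 1.51, against a median SD of 0.39 over the oligos with a value in all 6 fish, and 4 of 8143 oligos (0.0491%) had a larger one. In Ws its SD of 1.06 was exceeded by 0.770% of oligos. C099R107 had an SD of 0.93 in Wa, which 0.982% of oligos exceeded, and of 0.42 in Ws, which 41.8% exceeded. In D the SD of both spots lay below the median of all oligos (0.39), at 0.35 for C066R156 and 0.34 for C099R107. In W/D it was 0.62 and 0.65, exceeded by 11.2% and 9.25% of oligos. These shares are descriptions. For C099R107 on W/D arrays the SD was 0.18 in normalized log2 Cy5 and 0.58 in Cy3, so that the pool channel enters this spread.

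**Figure D4:**
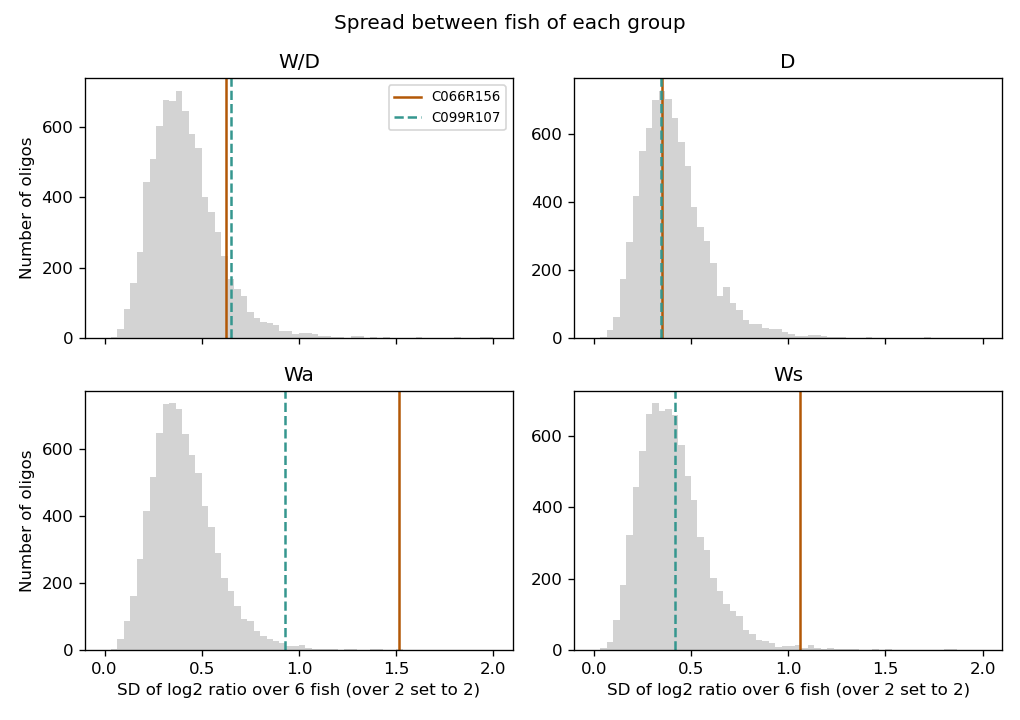
Number of oligos by the SD of their log2 ratio over the 6 fish of a group, with vertical lines at C066R156 (solid) and C099R107 (dashed). In Wa the line of C066R156 (1.51) lies in the far tail, and in D both lines (0.35 and 0.34) lie near the middle.

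Set side by side, the spots placed the same wild fish high and low. Wa fish 2 and 6 had the lowest log2 ratio of their group in both spots, and Ws fish 3 had the highest. The correlation of the spots was tested within each of the 4 groups. In Wa it was Pearson r = 0.98 (exact permutation p = 0.0111) and Spearman rho = 0.89 (exact permutation p = 0.0333, n = 6). These fish fell into separate clusters, and r was 0.69 without fish 2 and 6, so that the value rests largely on those fish. Their Cy5 signals lay near background, at 360 and 362 for C066R156. For C099R107 they were 219 and 261, under the filter's minimum of 300. In Ws the correlation was r = 0.46 (exact permutation p = 0.360) and rho = 0.09 (exact permutation p = 0.919, n = 6). It was r = -0.84 without fish 3 and 4, the farthest from the median of C066R156. The 4 fish left had Cy5 signals between 349 and 387 for C066R156 and between 194 and 240 for C099R107. These values lay near background, so that this r carries little. In W/D the log2 ratios of the spots ran in opposite directions (Pearson r = -0.71, exact permutation p = 0.0889, and Spearman rho = -0.77, exact permutation p = 0.103, n = 6), and r was -0.57 without the 2 fish farthest from the median of C066R156. For C099R107 on W/D arrays, the pool varied more (SD 0.58 in normalized log2 Cy3) than the fish (SD 0.18 in Cy5). The part of the pool channel in this correlation was not tested. In D the spots ran in the same direction (r = 0.50, exact permutation p = 0.319, and rho = 0.43, exact permutation p = 0.419, n = 6), and r was 0.34 without such fish. Adjusted over 4 groups, the exact permutation p of r was 0.178 in W/D, 0.360 in D, 0.0444 in Wa and 0.360 in Ws (n = 6 each). The adjusted exact permutation p of rho was between 0.133 and 0.919. Only r in Wa passed, and it rests largely on the 2 fish near background.

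The per-fish difference between the spots, C066R156 minus C099R107, averaged 0.94 ± 1.17 in W/D and 1.17 ± 0.35 in D (SD, n = 6 each). Its difference in W/D relative to D was -0.23, which did not pass the test (two-sided exact permutation p = 0.682, 6 fish each). The study had listed neither spot in this pairing, so that this outcome was partly set beforehand. The test compared means and not the spread. Among W/D fish the per-fish difference ranged between -0.38 and 2.78, and among D fish between 0.54 and 1.54. Variation of the pool channel enters these values.

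**Figure D5:**
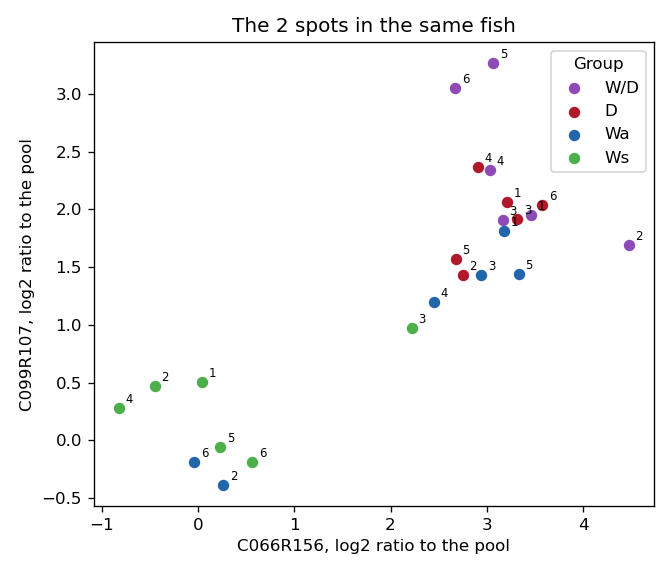
Log2 ratio of C099R107 against that of C066R156 for each of 24 fish, numbered by slide and coloured by group. Wa fish 2 and 6 lie with 5 Ws fish at the lower left, and Ws fish 3 lies beside the other Wa fish.

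The pool in the Cy3 channel was the same on every array, and its signal for C066R156 was between 285 and 689 on W/D arrays, 408 and 665 on D arrays, 250 and 404 on Wa arrays and 236 and 441 on Ws arrays. For C099R107 it was between 159 and 362 on W/D arrays, 249 and 320 on D arrays, 182 and 245 on Wa arrays and 164 and 224 on Ws arrays. After normalization the Cy3 level of C066R156 on W/D arrays lay 0.40 log2 units above that on Ws arrays (limma adjusted p = 0.883), and on D arrays 0.36 above it (limma adjusted p = 0.831). The Cy3 level of C099R107 on D arrays lay 0.48 above that on Ws arrays (unadjusted p = 0.0224, limma adjusted p = 0.555), and on W/D arrays 0.38 above it (limma adjusted p = 0.781). In the tested pairings, the Cy3 level of C066R156 lay 0.40 higher on W/D than on Wa arrays (limma unadjusted p = 0.139). On D arrays it lay 0.36 above that on Wa arrays (limma unadjusted p = 0.177). For C099R107 it lay 0.36 higher on Wa than on Ws arrays (limma unadjusted p = 0.0777). In W/D relative to D the Cy3 difference was 0.04 for C066R156 and -0.10 for C099R107. A higher Cy3 level lowers the ratio of the fish to the pool. Position and group cannot be told apart, and the part of either channel's array effects in the group differences was not tested.

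The oligos whose log2 ratio followed the spots most closely over the 24 fish are named as a description. Apart from the epoxide hydrolase spots, only oligos with a value in all 24 fish were ranked. For C066R156 the closest oligo of all 8678 others was C099R107 (r = 0.81). Of the ranked oligos the closest was solute carrier family 28 member 3, a nucleoside transporter (C216R135, r = 0.75). Brain protein 44, a subunit of the mitochondrial pyruvate carrier (C032R027, r = 0.74), the small GTPase Rab-18 (C208R127, r = 0.74), an oligo without a description (C152R136, r = 0.73) and enhancer of rudimentary homolog (C100R069, r = 0.72) came next. For C099R107 brain protein 44 was closest (r = 0.81), followed by C066R156. Solute carrier family 28 member 3 (r = 0.80), the glycolytic enzyme phosphoglycerate mutase 1 (C027R151, r = 0.77), solute carrier family 35 member B1 (C007R092, r = 0.76) and a mitochondrial peptidyl-prolyl isomerase (C112R065, r = 0.75) came next. All points share the pool and the slides, and the differences between groups enter these values.

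Solute carrier family 28 member 3 did not place the Wa fish as C066R156 did. Its log2 ratio in Wa fish 1 to 6 was 0.25, 0.16, -0.68, 0.33, 1.09 and -0.76, so that all 6 lay below the lowest W/D fish (2.47) and the lowest D fish (2.40). Rab-18 was even among Wa fish, between 1.00 and 1.40, but shared a high Ws fish 3 (1.85) with the epoxide hydrolase spots. After the group means were removed, the correlation between C066R156 and C099R107 was 0.54 (Spearman rho = 0.38). It was 0.39 without the 2 fish farthest from the median, and it pools groups in which the spots ran in the same and in opposite directions. Of the other oligos, 36 of 8678 had a higher one with C066R156. The 5 closest to C066R156 were then oligos without a description (C058R053, C028R109, C088R145, C002R068 and C259R066, r = 0.69, 0.69, 0.62, 0.62 and 0.61). For C099R107 they were phosphoglycerate mutase 1 (r = 0.69) and 4 oligos without a description (C192R039, C117R143, C015R142 and C213R139, r = 0.69, 0.67, 0.65 and 0.65).

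Other enzymes of the same roles were taken from the study's lists, which hold only spots chosen for a difference, so that their counts and directions are descriptions and not independent evidence. Of 27 spots for cytochromes P450, glutathione and glucuronosyl transferases and further biotransformation enzymes, 26 passed the filter. In W/D relative to D, 1 was called higher and 6 lower, where 0.749% of all oligos were called, with a median log2 fold change of -0.28 against 0.02 over all oligos. In D relative to Wa, 3 were called higher and 5 lower (3.58% of all oligos), with a median of 0.36 against -0.02. The counts differed with the wild group, since in D relative to Ws 11 were called higher and 2 lower (3.45% of all oligos), with a median of 0.76 against -0.01. In the hybrids, 0 were called higher and 3 lower against Wa (0.933% of all oligos), and 1 higher and 2 lower against Ws (2.06% of all oligos). In Wa relative to Ws, 3 were called higher and 0 lower (0.887% of all oligos). Several of the spots are described by the same name, so that they are not separate mRNAs. Those called higher in D relative to Ws were only glutathione transferase omega-1, carbonyl reductase 1, glutathione S-transferase P 1 and microsomal glutathione S-transferase 3. Those called lower in W/D relative to D were only glutathione transferase omega-1 and glutathione S-transferase P 1. The omega-1 spots were higher in D relative to Wa too, by 0.70 to 1.09 log2 units, around the 2-fold limit of a call.

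UDP-glucuronosyltransferase 2A1, which conjugates small molecules with glucuronic acid (C041R060), had a log2 fold change of -3.20 in D relative to Wa and of 1.88 in W/D relative to D, with 2 D fish missing from its values. UDP-glucuronosyltransferase 2B15 (C130R165) had a log2 fold change of -1.50 in D relative to Wa and of 1.11 in W/D relative to D. Glutathione S-transferase P 1, which conjugates electrophiles with glutathione (C138R089), had a log2 fold change of 2.45 in D relative to Wa and of -1.55 in W/D relative to D. Of the spots with the largest differences, 4 are described as glutathione transferase omega-1, and they had log2 fold changes between -1.55 and -1.44 in W/D relative to D. All these spots were chosen for the size of their difference, so that no test is given.

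Of the spots for peroxisomal proteins, 5 of 5 passed the filter, under 4 names. They too came from lists of spots chosen for a difference, so that their counts are descriptions. The 2 called lower in W/D relative to D are both described as peroxisomal membrane protein 2, a channel protein of the peroxisomal membrane (C207R051 and C211R045, log2 fold changes of -1.12 and -1.11). In that comparison 0.749% of all oligos were called. Of the 5 spots, D fish had 2 called higher against Wa (3.58% of all oligos called) and 3 called higher against Ws (3.45%). In the hybrids 1 was called higher against Wa (0.933% of all oligos) and 1 against Ws (2.06%). In Wa relative to Ws 0 were called (0.887% of all oligos). Peroxisomal 3,2-trans-enoyl-CoA isomerase, an enzyme of the oxidation of unsaturated fatty acids (C003R040), had a log2 fold change of 2.63 in D relative to Wa and of -0.83 in W/D relative to D. Its log2 ratio in Wa fish 1 to 6 was -1.35, 1.66, -1.34, -1.57, 0.59 and 0.93. The SD of this enzyme was 1.40 in Wa and 0.96 in Ws, close to that of C066R156 (1.51 and 1.06). Wa fish 2 and 6, the low fish of both epoxide hydrolase spots, were the highest of this enzyme. Over 24 fish and after removal of group means, it had r = -0.49 with C066R156 and r = -0.56 with C099R107, given as a description. The other peroxisomal spots had r between -0.09 and 0.15 with C066R156 and between -0.03 and 0.14 with C099R107. The list of lipid mediator enzymes held 1 spot, which was called in 0 of the 6 comparisons, where between 0.749% and 3.58% of all oligos were called.

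Markers of hepatocytes and other cells were set beside the spots as averages of their log2 ratios. They too came from the study's lists of spots chosen for a difference. Separation of the groups in these averages is therefore partly built in and is given as a description. The 7 hepatocyte spots averaged between 0.03 and 0.73 in W/D fish, 0.45 and 1.12 in D fish, -0.94 and -0.38 in Wa fish and -0.20 and 0.68 in Ws fish. Every W/D and D fish thus lay above every Wa fish in the average of these mRNAs, and Ws fish overlapped with W/D and D. After removal of group means their average had r = -0.02 with C066R156 and -0.20 with C099R107 over 24 fish, and their part in the group differences was not tested. The 19 of 35 hemoglobin spots that passed the filter averaged between -0.15 and 0.71 in W/D fish, 0.09 and 2.16 in D fish, -0.32 and 0.19 in Wa fish and -1.08 and -0.16 in Ws fish. The highest averages were those of D fish and the lowest those of Ws fish. After removal of group means its average had r = -0.13 with C066R156 and 0.01 with C099R107 over 24 fish. The part of blood cells in the group differences was not tested. Both spots of the Ig mu chain, a marker of B cells, averaged between -0.89 and 1.05 in W/D, -0.92 and 0.28 in D, 0.68 and 2.14 in Wa and 0.02 and 0.99 in Ws. Of the skeletal muscle list 1 of 2 spots passed the filter, and it is described as a non-muscle myosin. In whole liver, fewer cells of a type and less RNA per cell cannot be told apart.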

How the data were processed

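The authors deposited, per array, the intensity of each spot in both channels from ImaGene, with local background and a flag for each spot and without normalization. They also deposited log2 ratios, normalised by LOWESS in GeneSpring and given relative to each oligo's median, which served as an alternative. Own and deposited log2 ratios, each centred by oligo, had r between 0.858 and 0.926 per array across oligos. The limma package (3.58.1, R 4.3.3) was used for normexp background correction (offset 50) and loess normalisation of the log2 ratios, and control spots and flagged values were left out. What the flag means is not given in the sources used here. The filter kept oligos whose unflagged Cy5 signal reached 300 on all 6 arrays of a group and which had a value in every group (8679 of 43689). limma was fitted over the 4 groups and tested on simulated data. All tests are two-sided.

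Fish with the same number shared a slide, as the series design states. After removal of group means, the mean correlation of such fish was between 0.0049 and 0.067 for pairs of groups, across oligos. Members, gene lists and tests were chosen with earlier results of these data known. Named were the members, the 5 oligos most like each with and without group means, and the 8 listed enzyme spots with the largest difference in W/D relative to D or D relative to Wa. The spots of peroxisomal membrane protein 2 were named in addition, from outside that ranking. Columns of the study's own fold changes and p-values were not used. Alternatives were another background correction, normalization, filter and flag handling, the deposited ratios, the Cy5 channel alone, the slide as a block, the methods' test (one-way ANOVA with Tukey's test), D fish 4 and 6 averaged, and each fish left out. Plots were made in matplotlib 3.10.9 (Python 3.11.15).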

Additional observations from a re-analysis of the deposited data

How the results depend on the processing

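Every group difference of both spots kept its direction under all alternatives run, and none of the 6 tested comparisons became a call. The tested pairings were ones not listed by the study, so an absence of calls was largely set beforehand. For C066R156 over the settings other than leaving out a fish, W/D relative to D was between 0.06 and 0.40 (limma or Tukey adjusted p between 0.742 and 0.977), W/D relative to Wa between 1.24 and 1.69 (0.127 to 0.326) and D relative to Wa between 0.91 and 1.41 (0.0896 to 0.287). For C099R107, W/D relative to D was between 0.23 and 0.60 (0.458 to 0.733) and Wa relative to Ws between 0.45 and 0.92 (0.107 to 0.640). With the slide as a replicate block, the log2 fold change of C066R156 in W/D relative to Wa was 1.29 (limma adjusted p = 0.207), and the block changed no call. Leaving out each fish in turn gave between 0.88 (without Wa fish 6) and 1.55 for C066R156 in W/D relative to Wa, between 0.64 (without Wa fish 6) and 1.31 in D relative to Wa and between 0.0088 (without W/D fish 2) and 0.37 in W/D relative to D. For C099R107 it gave between 0.29 (without W/D fish 5) and 0.60 in W/D relative to D and between 0.37 (without Wa fish 1) and 0.81 in Wa relative to Ws. The difference of the spots in W/D relative to D, not past the threshold at any setting, was between -0.60 and 0.035 with each fish left out and turned positive without W/D fish 6 (0.035, exact permutation p = 0.929). C099R107 gave no value with a signal minimum on all 24 arrays. The methods' test gives no midparent comparison. The low Cy5 signals of Wa fish 2 and 6 and of most Ws fish lay near background, which limits the log2 differences from these fish.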
